A study of Mus musculus with 12 samples.

Results

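The 10 genes described here belong to insulin-like growth factor (IGF) and insulin signalling and were followed in mouse cumulus cells. They are the ligand Igf1, the receptors Igf1r, Igf2r and Insr, the binding proteins Igfbp4 and Igfbp5, the receptor substrates Irs1 and Irs2, the adaptor Grb14 and the PI3-kinase inhibitor Pik3ip1. They were looked up by symbol in the annotation of the array, and where several probe sets carried a symbol, the brightest over the 12 arrays stood for the gene. All 10 were found, among 19938 genes with a named probe set. Cumulus cells are the somatic cells that surround the oocyte. They came from complexes of cumulus cells and oocyte of female 129SV mice aged 21 to 26 days, taken 44 h after 5 IU of equine chorionic gonadotropin and cultured whole for 8 h before the oocyte was removed. All groups therefore shared the gonadotropin priming and the presence of the oocyte during culture. They also shared collection in a medium with cilostamide, a phosphodiesterase inhibitor that keeps cyclic AMP high, at 1 µM, which is not listed for the culture medium. Control complexes received 293H control medium at 0.125% v/v, and FSH/EGF complexes received the same medium with follicle stimulating hormone at 50 mIU/ml and epidermal growth factor at 10 ng/ml. GDF9 complexes received growth differentiation factor 9, a factor that the oocyte itself secretes, at 20 ng/ml, and for them no 293H medium is named in the labels. Each group had 4 arrays, and each array carried RNA pooled from 2 of 8 independent cultures, so the spread between arrays is the spread between such pools.

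IGF1 is a growth factor that follicular somatic cells make and that acts with FSH on granulosa cell growth and steroid synthesis. It binds a receptor tyrosine kinase, and the activated IGF1 and insulin receptors phosphorylate docking proteins of the IRS family, which recruit PI3-kinase and so activate AKT. Binding proteins hold IGFs in the extracellular fluid and limit their access to the receptor, and proteases release them. The adaptors GRB10 and GRB14 and inhibitors of PI3-kinase act against the signal inside the cell, and FOXO transcription factors are among the proteins that AKT keeps out of the nucleus.

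The promoters of 4 members are printed first. They are those of the 2 members with the largest falls under FSH/EGF (Igf1 and Grb14) and of the 2 that rose (Igfbp4 and Igfbp5). Irs1 and Pik3ip1 also fell by more than 2-fold, and their windows are not printed. RefSeq's promoter table (GRCm38.p6) held 9 of the 10 members, and Insr was the member with no entry. The 250 bases before the listed start are given 5′ to 3′ on the gene's own strand. Capitals mark matches, on either strand, to any of 7 short motifs. The windows are chr10:87860861-87861110 on the plus strand for Igf1, chr2:65022767-65023016 on the minus strand for Grb14, chr11:99040994-99041243 on the plus strand for Igfbp4 and chr1:72874866-72875115 on the minus strand for Igfbp5.
Igf1: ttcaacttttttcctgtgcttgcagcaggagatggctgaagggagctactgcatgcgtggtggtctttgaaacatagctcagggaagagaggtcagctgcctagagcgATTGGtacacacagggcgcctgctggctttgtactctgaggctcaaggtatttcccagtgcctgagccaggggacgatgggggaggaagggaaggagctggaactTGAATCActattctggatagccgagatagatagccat
Grb14: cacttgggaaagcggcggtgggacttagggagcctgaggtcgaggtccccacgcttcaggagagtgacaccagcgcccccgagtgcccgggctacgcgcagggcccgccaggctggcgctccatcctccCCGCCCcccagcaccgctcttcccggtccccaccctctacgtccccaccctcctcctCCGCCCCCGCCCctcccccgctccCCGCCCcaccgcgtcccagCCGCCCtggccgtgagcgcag
Igfbp4: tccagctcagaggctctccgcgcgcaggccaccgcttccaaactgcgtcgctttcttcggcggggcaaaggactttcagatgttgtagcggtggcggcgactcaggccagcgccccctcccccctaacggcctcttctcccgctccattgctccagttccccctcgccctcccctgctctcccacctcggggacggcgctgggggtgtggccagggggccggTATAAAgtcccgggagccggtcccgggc
Igfbp5: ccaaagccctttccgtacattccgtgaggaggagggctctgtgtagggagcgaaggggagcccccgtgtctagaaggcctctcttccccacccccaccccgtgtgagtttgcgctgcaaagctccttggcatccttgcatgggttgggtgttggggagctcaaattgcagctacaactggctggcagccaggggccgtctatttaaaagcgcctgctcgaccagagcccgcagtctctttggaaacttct

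The Igf1 window had 52.8% G and C, with a CCAAT box (CCAAT) on the reverse strand and an AP-1 site (TGANTCA) nearer the start. The Grb14 window was richer in G and C, at 75.2%, and its 5 capitalised matches were all GC boxes (GGGCGG) read on the reverse strand, with 2 of them adjoining. The Igfbp4 window, at 69.2% G and C, held a TATA box (TATAAA) close to the start, and the Igfbp5 window, at 58.8%, held no match. Over the 9 members, GC boxes occurred in 5 windows against 32.7% of all 32851 promoter windows, CCAAT boxes in 2 against 33.8%, TATA boxes in 1 against 12.4% and AP-1 sites in 1 against 6.75%. The short core TGACG, which also lies within the cyclic AMP response element TGACGTCA, occurred in 2 (Igf2r and Irs1) against 17.8%. No member window held the full element TGACGTCA, found in 1.55% of all windows, or the FOXO core GTAAACA, found in 3.17%. A match describes the letters of these windows and is neither a binding site nor a cause of a change.

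All expression values are on the log2 scale as deposited, where a difference of 1 is a doubling of the signal. The medians of the arrays lay between 5.41 and 5.53, and arrays of 1 group correlated at 0.971 to 0.995 over all rows. Levels of different genes are not compared, since probe sets differ in how strongly they bind. In whole cultures, fewer cells of a type and less RNA per cell cannot be told apart. The mean log2 value of 10 granulosa and cumulus markers was 9.32 to 9.55 in control arrays, 9.38 to 9.48 in GDF9 arrays and 7.94 to 8.08 in FSH/EGF arrays, and 8 of the 10 fell with FSH/EGF, among them Fshr (log2 difference −3.14). That marker list moved with the FSH/EGF results below, and its part in them was not tested. Of 13 oocyte markers, 1 fell with FSH/EGF; their mean was 5.95 in control array 4, 4.89 to 5.08 in the other control arrays, 4.76 to 4.93 with GDF9 and 4.76 to 5.10 with FSH/EGF. Markers of theca and stroma, of endothelium and of leukocytes also differed in part between control and FSH/EGF. The 10 of theca and stroma averaged 6.18 to 6.31 in control and 5.76 to 5.82 with FSH/EGF. Of these 3 were lower, Acta2 (difference −2.34), Pdgfra (−0.40) and Col1a1 (−0.31), and Cyp17a1 (4.60 and 4.43) did not pass. The 8 of endothelium averaged 4.82 to 4.95 and 5.27 to 5.31. Of these 2 were higher, Cdh5 (3.18) and Tek (0.29), with the other 6 slightly below 0 and Pecam1 at 4.93 and 4.92. The 8 of leukocytes averaged 4.83 to 5.04 and 4.80 to 4.91. Of these 1 was higher, Cd68 (0.50), and Ptprc (4.77 and 4.59) did not pass. The 3 markers of mural granulosa cells averaged 5.75 to 6.003 and 6.22 to 6.46 but went different ways, with differences of 2.61 for Emb (higher), −1.0025 for Nppc (lower) and 0.02 for Cyp11a1 (not past the threshold). The 2 markers of red blood cells averaged 5.38 to 5.67 and 5.20 to 5.23. Both fell at dim signal, Slc4a1 from a control mean of 5.80 to 5.49 and Alas2 from 5.25 to 4.94. The globin genes Hbb-b1 and Hba-a1 were not found in the annotation. Of all genes 21.9% were higher and 14.9% lower with FSH/EGF against control. The part of these lists in the results was not tested. Control array 1 stood apart from the other control arrays, with an array weight of 0.269 where the 11 others had 0.485 to 2.04.

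The first comparison asked how FSH with EGF changed these genes in cumulus cells. Igf1, Igf1r, Irs1, Grb14 and Pik3ip1 fell and Igfbp4 and Igfbp5 rose, so that 7 of the 10 genes passed the threshold (limma, Benjamini-Hochberg adjusted p under 0.05 over all 35399 rows). Of all 19938 genes 36.8% passed it in either direction, 21.9% as higher and 14.9% as lower. Of the called genes 59.4% were higher, and 72.5% with equal array medians. A change of at least 2-fold was found for 6 of the 10, 2 higher and 4 lower, against 7.37% of all genes (5.14% higher and 2.23% lower). The FSH/EGF and control arrays did not overlap for 6 of the 10, against 41.9% of all genes. The median log2 difference of the 10 was −0.36, and that of all genes was −0.07. The 10 genes were chosen with earlier results of these data known. These shares, here and in the later comparisons, therefore only describe the 10 and are no test of the pathway. Igf2r, Insr and Irs2 did not pass.

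**Figure D1:**
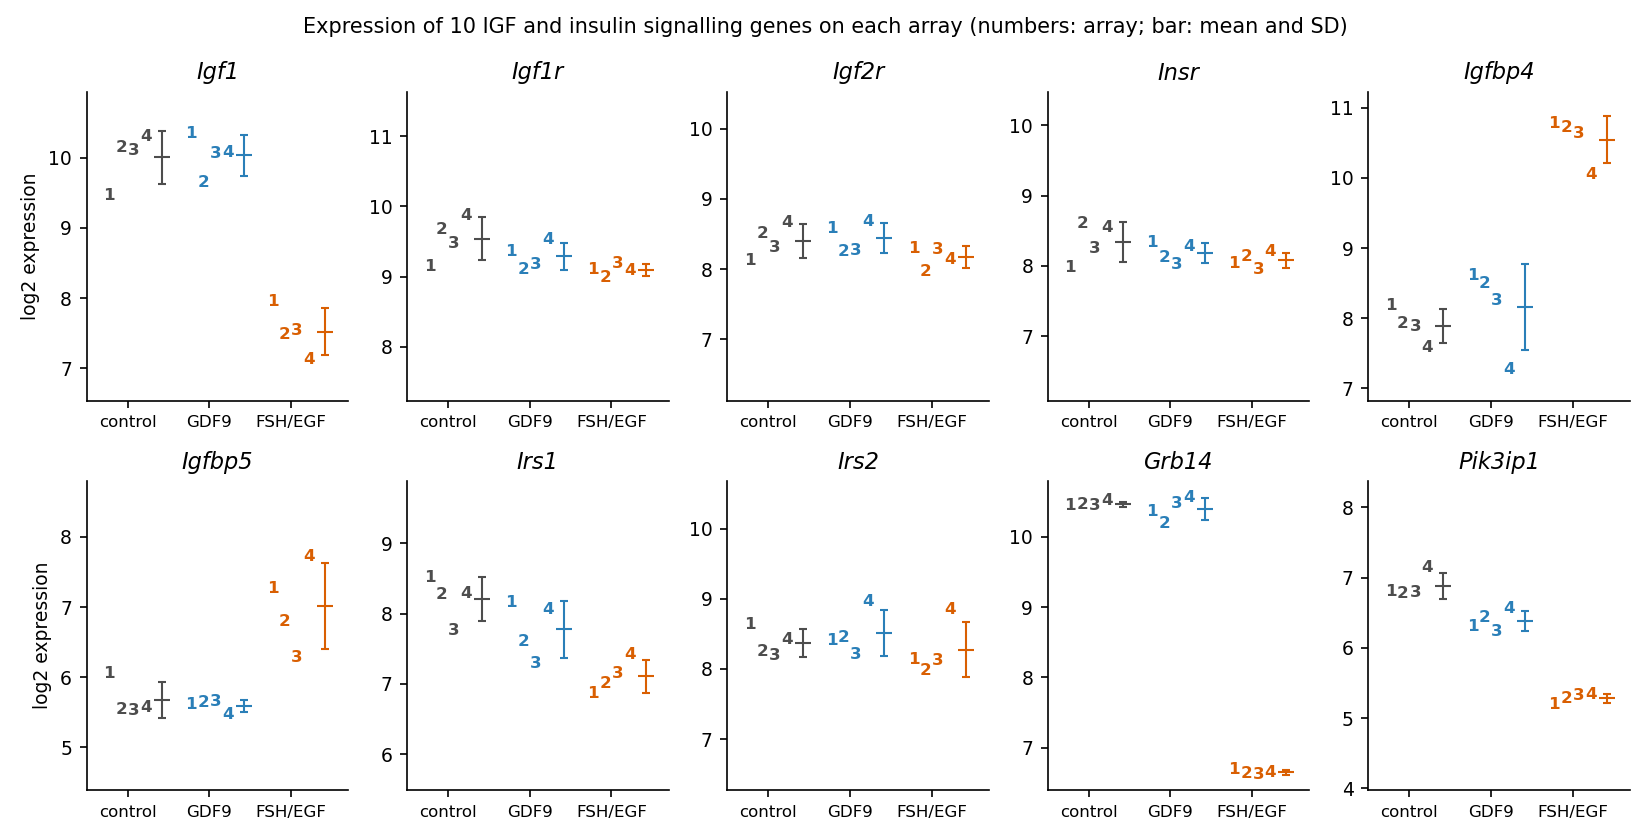
Log2 signal of each of the 10 genes on each of the 12 arrays by culture group, with points for arrays and a bar for the group mean. The FSH/EGF arrays lie apart from both other groups for Igf1, Igfbp4, Igfbp5, Grb14 and Pik3ip1, and Irs2 overlaps in all 3 groups.

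Igf1, the ligand, was at 9.46, 10.14, 10.11 and 10.30 on control arrays 1 to 4, at 10.35, 9.65, 10.06 and 10.07 on the GDF9 arrays and at 7.95, 7.48, 7.54 and 7.12 on the FSH/EGF arrays. All 4 FSH/EGF arrays lay below every other array, and the control and GDF9 arrays overlapped. Igf1 fell by 2.48 ± 0.21 (SE, n = 4 arrays per group) on the log2 scale against control, a 5.58-fold lower signal (limma adjusted p = 1.725e-06). Control array 1 had the lowest of the control values and FSH/EGF array 1 the highest of the treated ones. Leaving out control arrays 1 and 4 gave −2.60. The other measured ligands, Igf2 and Ins2, differed by −0.06 ± 0.07 (adjusted p = 0.576) and −0.06 ± 0.10 (adjusted p = 0.648) and did not pass, and Igf2 was at 5.25 to 5.48 on every array.

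Igf1r, the IGF1 receptor, was at 9.15, 9.67, 9.48 and 9.87 on control arrays, at 9.36, 9.10, 9.18 and 9.53 on GDF9 arrays and at 9.11, 8.99, 9.19 and 9.09 on FSH/EGF arrays. The FSH/EGF arrays were close together and below 3 of the 4 control arrays, with control array 1 among them. Igf1r fell by 0.45 ± 0.14 on the log2 scale, 1.36-fold (limma adjusted p = 0.0308). This call was lost with equal array medians (−0.37, adjusted p = 0.107), without variance moderation (0.0579), and without control array 2 (−0.40, 0.0778), 3 (−0.47, 0.051) or 4 (−0.34, 0.0769) or FSH/EGF array 1 (0.063), 2 (0.0765) or 4 (0.0621).

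The insulin receptor Insr ranged from 7.98 to 8.60 on control arrays, 8.02 to 8.33 on GDF9 arrays and 7.95 to 8.20 on FSH/EGF arrays. The difference FSH/EGF minus control was −0.26 ± 0.13, with a 95% interval of −0.54 to 0.02 (limma adjusted p = 0.145), so a decrease of up to 0.54 lies within it. A second Insr probe set, dimmer on average, lay at 7.91 to 8.26 in control, 7.67 to 8.11 with GDF9 and 7.55 to 7.83 with FSH/EGF, without overlap of the last with control. It differed by −0.42 ± 0.11 and passed (adjusted p = 0.0137), so the probe sets of this gene disagreed on the call. The Insr difference also passed without control array 1 (−0.38, adjusted p = 0.019), with array weights (−0.37, 0.0143), with values quantile normalized again (−0.48, 0.00563) and with the mean over both probe sets (−0.34, 0.0236). Igf2r, which removes IGF2 from the cell surface and has no kinase, ranged from 8.12 to 8.66 in control, 8.26 to 8.68 with GDF9 and 7.96 to 8.29 with FSH/EGF. Its difference was −0.23 ± 0.14 (95% interval −0.52 to 0.07, limma adjusted p = 0.225) and passed only with renewed quantile normalization (−0.45, 0.00935) among the alternatives run. Insrr, the remaining receptor of the family, was at −0.15 ± 0.09 (adjusted p = 0.240).

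Igfbp4, a binding protein that restrains IGF action, was at 8.18, 7.92, 7.88 and 7.59 on control arrays, at 8.61, 8.50, 8.26 and 7.27 on GDF9 arrays and at 10.78, 10.72, 10.63 and 10.05 on FSH/EGF arrays. Every FSH/EGF array was above every other array. Igfbp4 rose by 2.65 ± 0.26 on the log2 scale against control, 6.28-fold (limma adjusted p = 7.759e-06).

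Igfbp5, which binds IGFs and also the extracellular matrix, was at 6.05, 5.54, 5.52 and 5.57 on control arrays, at 5.61, 5.64, 5.65 and 5.46 on GDF9 arrays and at 7.26, 6.80, 6.28 and 7.72 on FSH/EGF arrays. All FSH/EGF arrays were above all others, and they spread more than the remaining groups (SD 0.62 against 0.25 in control and 0.09 with GDF9), a difference in spread that was not tested. The rise was 1.34 ± 0.24, 2.53-fold (limma adjusted p = 0.001055). Without control array 1, the highest of its group, it was 1.47.

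Irs1, a docking protein of the activated receptors, was at 8.51, 8.28, 7.77 and 8.28 on control arrays, at 8.15, 7.61, 7.29 and 8.06 on GDF9 arrays and at 6.86, 7.01, 7.14 and 7.41 on FSH/EGF arrays. The FSH/EGF arrays lay below all control arrays but overlapped the GDF9 arrays, through GDF9 array 3 and FSH/EGF array 4. Irs1 fell by 1.10 ± 0.20 against control, 2.15-fold (limma adjusted p = 0.001292). The mean over its 2 probe sets gave −0.69; the second set was dim, at 4.17 to 4.45 by group mean, and did not pass by itself (−0.28 ± 0.16, adjusted p = 0.204). Irs2, the related docking protein, ranged from 8.19 to 8.63 in control, 8.20 to 8.97 with GDF9 and 7.98 to 8.85 with FSH/EGF, and the groups overlapped. Its difference was −0.10 ± 0.20 (95% interval −0.53 to 0.33, limma adjusted p = 0.725) and turned to 0.05 without control arrays 1 and 4.

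Grb14, an adaptor that binds the activated insulin receptor and inhibits its kinase, was at 10.44, 10.46, 10.45 and 10.52 on control arrays, at 10.36, 10.20, 10.48 and 10.57 on GDF9 arrays and at 6.69, 6.63, 6.62 and 6.64 on FSH/EGF arrays. The control arrays spanned 0.08 and the FSH/EGF arrays 0.07, and no array of any group lay between 6.69 and 10.20. Grb14 fell by 3.82 ± 0.08 against control, a 14.1-fold lower signal (limma adjusted p = 1.132e-11). Among 19938 genes this was the 8th lowest difference.

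Pik3ip1, a membrane protein that inhibits the catalytic subunit of PI3-kinase, was at 6.80, 6.77, 6.79 and 7.15 on control arrays, at 6.30, 6.43, 6.24 and 6.56 on GDF9 arrays and at 5.20, 5.28, 5.33 and 5.33 on FSH/EGF arrays. The 3 groups did not overlap at all, with control highest and FSH/EGF lowest. Pik3ip1 fell by 1.59 ± 0.10 with FSH/EGF against control, 3.01-fold (limma adjusted p = 1.027e-07). The FSH/EGF values lay below the array medians.

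**Figure D2:**
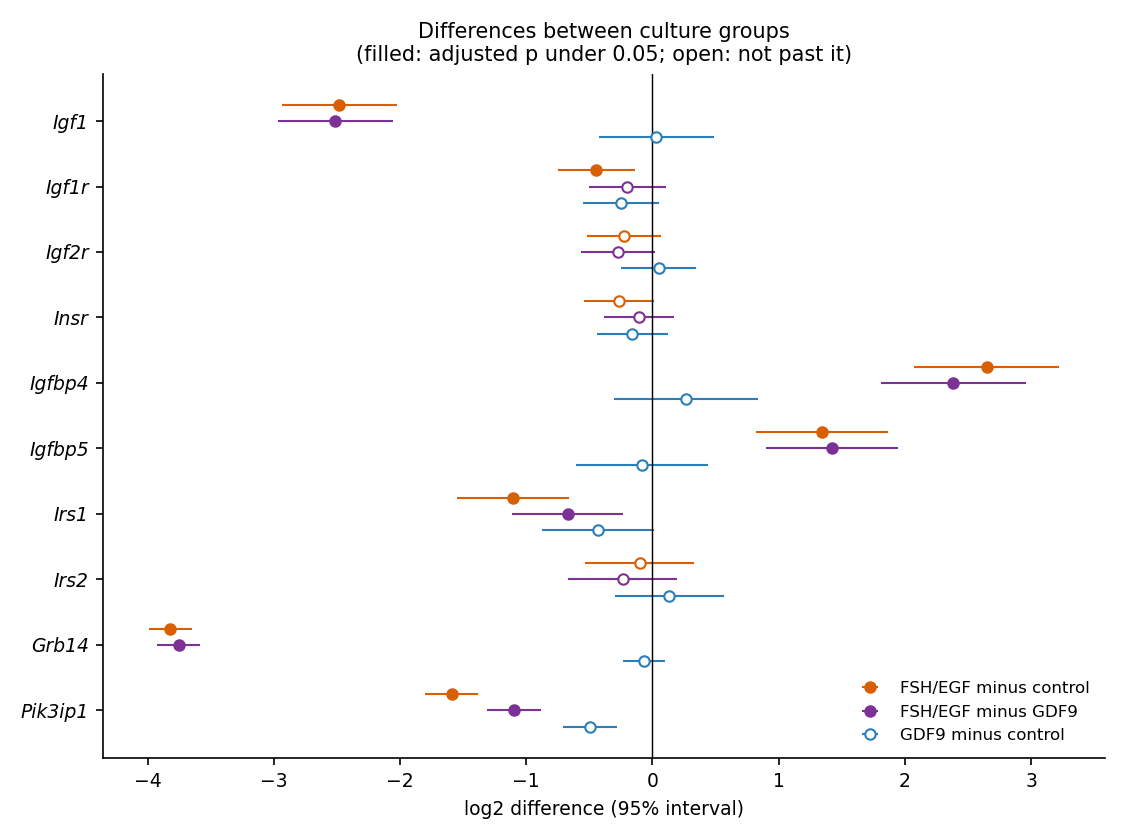
Log2 differences of the 10 genes in the 3 comparisons with 95% intervals from limma, with 4 arrays per group. In FSH/EGF minus control the differences run from −3.82 for Grb14 to 2.65 for Igfbp4, and in GDF9 minus control from −0.50 to 0.27.

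The second comparison set GDF9 without FSH and EGF against control. The control group had 293H medium and none is named for the GDF9 group, so an effect of that medium and one of GDF9 cannot be told apart here. None of the 10 passed the threshold against control, and 0% of all genes did, with a smallest adjusted p of 0.847 (limma). At an unadjusted p under 0.05 there was 1 of the 10, against 4.95% of all genes, and the arrays did not overlap for 1 of the 10, against 2.32%. Without variance moderation 0 of the 10 passed as well. Both exceptions were Pik3ip1, which lay lower on all 4 GDF9 arrays than on all 4 control arrays: its difference was −0.50 ± 0.10 (95% interval −0.71 to −0.28), with an unadjusted p of 0.00027 and a limma adjusted p of 0.869, which over the alternatives ran from 0.536 to 0.9998. It was the 19th lowest GDF9 difference of all genes. Control array 4 held a Pik3ip1 value far above the other control arrays (7.15), and without that array the difference was −0.40. For Irs1 the difference was −0.43 ± 0.20 (95% interval −0.87 to 0.01), and the arrays overlapped. Igf1 differed by 0.03 ± 0.21 (95% interval −0.42 to 0.49), Grb14 by −0.07 ± 0.08 (−0.24 to 0.10), Igfbp4 by 0.27 ± 0.26 (−0.31 to 0.84) and Igfbp5 by −0.08 ± 0.24 (−0.60 to 0.44). The interval for Igf1r was −0.55 to 0.06, for Insr −0.44 to 0.12, for Igf2r −0.25 to 0.34 and for Irs2 −0.30 to 0.56. The intervals for Igf1, Irs1, Igfbp4, Igfbp5, Grb14 and Pik3ip1 do not reach the size of their FSH/EGF minus control differences. That for Igf1r does, as do those for Igf2r, Insr and Irs2, which did not pass with FSH/EGF. These comparisons share the control arrays. Each interval also rests on 1 spread per gene taken over all 3 groups, so the FSH/EGF arrays add to the GDF9 intervals. For Igfbp5 the SD was 0.25 in control, 0.09 with GDF9 and 0.62 with FSH/EGF.

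The third comparison set FSH/EGF against GDF9, with the FSH/EGF arrays of the first comparison. Igf1, Irs1, Grb14 and Pik3ip1 were lower and Igfbp4 and Igfbp5 higher with FSH/EGF, 6 of the 10 genes against 29.1% of all genes, of which 18.6% were higher and 10.5% lower (limma adjusted p under 0.05). The arrays did not overlap for 5 of the 10, against 33.7%. The log2 differences were −3.75 ± 0.08 for Grb14 (adjusted p = 1.229e-11), −2.51 ± 0.21 for Igf1 (1.716e-06), −1.10 ± 0.10 for Pik3ip1 (3.34e-06), 2.38 ± 0.26 for Igfbp4 (2.196e-05) and 1.42 ± 0.24 for Igfbp5 (7.698e-04). Irs1 differed by −0.67 ± 0.20 (adjusted p = 0.031). That Irs1 call was lost with equal array medians (0.0568), without moderation (0.0721) and without GDF9 array 1 (−0.55, 0.0818) or 4 (−0.58, 0.0886) or FSH/EGF array 1 (−0.59, 0.0931), 2 (−0.64, 0.0761) or 3 (−0.68, 0.061). Igf1r (−0.20 ± 0.14), Igf2r (−0.28 ± 0.14), Insr (−0.11 ± 0.13) and Irs2 (−0.24 ± 0.20) did not pass, with limma adjusted p of 0.377, 0.182, 0.636 and 0.466. With values quantile normalized again Igf1r (−0.38, 0.042) and Igf2r (−0.43, 0.0126) passed.

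The spread among arrays of 1 group was not even over the arrays. Control array 1 had the highest or the lowest value of its group for 9 of the 10 genes. Array 4 of GDF9 and array 4 of FSH/EGF each had it for 7. In 8 of the 10 control array 1 was shifted from the other 3 control arrays in the direction of the FSH/EGF arrays. Such a shift was seen in 7 of the 10 for control array 3 and in 4 for control array 2. The shares over all genes were not computed for these counts, so they only describe the 10. Control array 4, which had the highest oocyte marker mean, was shifted that way for 0 of the 10. Without control arrays 1 and 4, 7 of the 10 genes still passed in FSH/EGF minus control, against 30.8% of all genes. Grb14 was then at −3.81, Igfbp4 at 2.64, Igfbp5 at 1.48, Pik3ip1 at −1.49, Irs1 at −0.91 and Igf1r at −0.48.

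**Figure D3:**
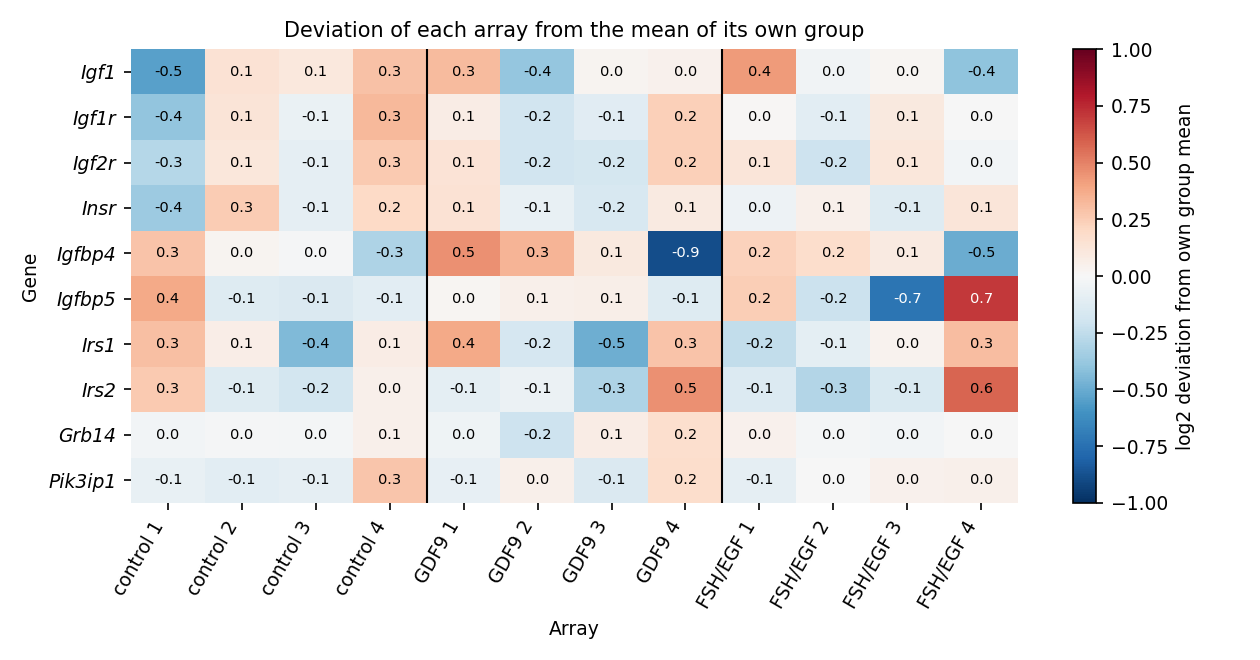
Deviation of every array from its group mean, in log2 units, for the 10 genes. Control array 1 holds the extreme value of its group for 9 of the 10 genes, and array 4 of GDF9 and array 4 of FSH/EGF for 7 each.

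A wider list of 76 genes of the pathway, grouped by role, was chosen with earlier results of these data known, and 70 of them were measured. With FSH/EGF against control 22 rose, 15 fell and 33 did not pass (limma), that is 52.9% called against 36.8% of all genes, and the median difference was 0.06 against −0.07. Without the 10 members, 20 of 60 rose and 10 fell, 50% called. Other scalings moved the split, to 26 higher and 11 lower with equal array medians and to 18 and 17 with renewed quantile normalization. With GDF9 against control 0 of the 70 passed, as did 0% of all genes. At an unadjusted limma p under 0.05 there were 3 of the 70, a share close to the 4.95% of all genes.

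Among binding proteins and their regulators 6 of 12 rose and 2 fell, where 21.9% of all genes were higher and 14.9% lower. Igfbp6, which prefers IGF2, rose by 2.65 ± 0.11 (limma adjusted p = 3.422e-09), from 5.56 to 5.64 on control arrays to 8.09 to 8.45 on FSH/EGF arrays. Igfbp7, a low-affinity relative, rose by 1.98 ± 0.12 (adjusted p = 7.769e-08), and Pappa, the protease that cleaves IGFBP4, by 0.97 ± 0.10 (adjusted p = 1.712e-05). Those 3 genes were separated from control on all arrays and moved in the same direction as Igfbp4 and Igfbp5. Igfbp3, the main carrier of IGFs in serum, rose by 0.91 ± 0.14, while Igfbp1 fell by 0.38 ± 0.08 and Stc2, an inhibitor of the PAPPA protease, fell by 0.32 ± 0.09. Both falls were at dim signal, from a control mean of 5.56 to 5.18 for Igfbp1 and from 5.67 to 5.35 for Stc2. Their FSH/EGF means lay below the array medians. The Stc2 call was lost with equal array medians (−0.24, adjusted p = 0.110), with renewed quantile normalization (−0.25, 0.1001), without control arrays 1 and 4 (−0.22, 0.154) and without FSH/EGF array 4 (−0.30, 0.0517). The remaining 4 did not pass, among them Igfbp2 at 0.12 ± 0.10 (adjusted p = 0.389).

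Among receptor substrates and adaptors 2 of 12 rose and 4 fell, Irs1 and Grb14 among the latter, that is 50% called against 36.8% of all genes (21.9% higher, 14.9% lower). Grb10, the close relative of Grb14, fell by 1.03 ± 0.12 (limma adjusted p = 2.547e-05), and the docking protein Gab1 fell by 0.60 ± 0.10 (7.429e-04). Shc1, the adaptor towards the RAS pathway, rose by 1.17 ± 0.11 (4.214e-06). Of 10 genes of PI3-kinase and AKT, 4 rose and Pik3ip1 fell, again 50% called against 36.8%. The regulatory subunit Pik3r3 rose by 0.81 ± 0.10 (4.756e-05), Pdpk1, the kinase that phosphorylates AKT, by 0.60 ± 0.10 (4.691e-04) and Akt2 by 0.54 ± 0.08 (2.244e-04).

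Of 12 phosphatases and other inhibitors 3 rose and 4 fell, where 21.9% of all genes were higher, a share close to that of this group, and 14.9% lower. Ptpn1, a phosphatase of the insulin receptor, rose by 0.89 ± 0.09 (limma adjusted p = 9.307e-06) and Socs3, an inhibitor of cytokine and insulin signals, by 0.70 ± 0.14 (0.002707), while the related phosphatase Ptpn2 fell by 0.78 ± 0.17 (0.004111). In the mTOR branch 5 of 11 rose and 0 fell, 45.5% called against 36.8% of all genes. Ddit4, an inhibitor of mTOR complex 1, rose by 2.73 ± 0.14 (1.668e-08), from 6.15 to 6.71 on control arrays to 9.05 to 9.17. Mlst8, a subunit of both mTOR complexes, rose by 0.62 ± 0.11 (9.126e-04), and Rictor, a subunit of mTOR complex 2, rose by 0.60 ± 0.15 (0.009991). Rictor did not pass without control arrays 1 and 4 (0.45, adjusted p = 0.0689). Of 6 genes of FOXO and GSK3, 2 rose and 2 fell, against 21.9% and 14.9% of all genes. Foxo1 fell by 1.78 ± 0.12 (1.528e-07), from 11.07 to 11.43 down to 9.23 to 9.66, and Gsk3b rose by 0.72 ± 0.13 (0.001303). Foxo3 fell by 0.32 ± 0.09 (0.014), a call lost with equal array medians (−0.24, 0.0568) and without control arrays 1 and 4 (−0.22, 0.129).

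**Figure D4:**
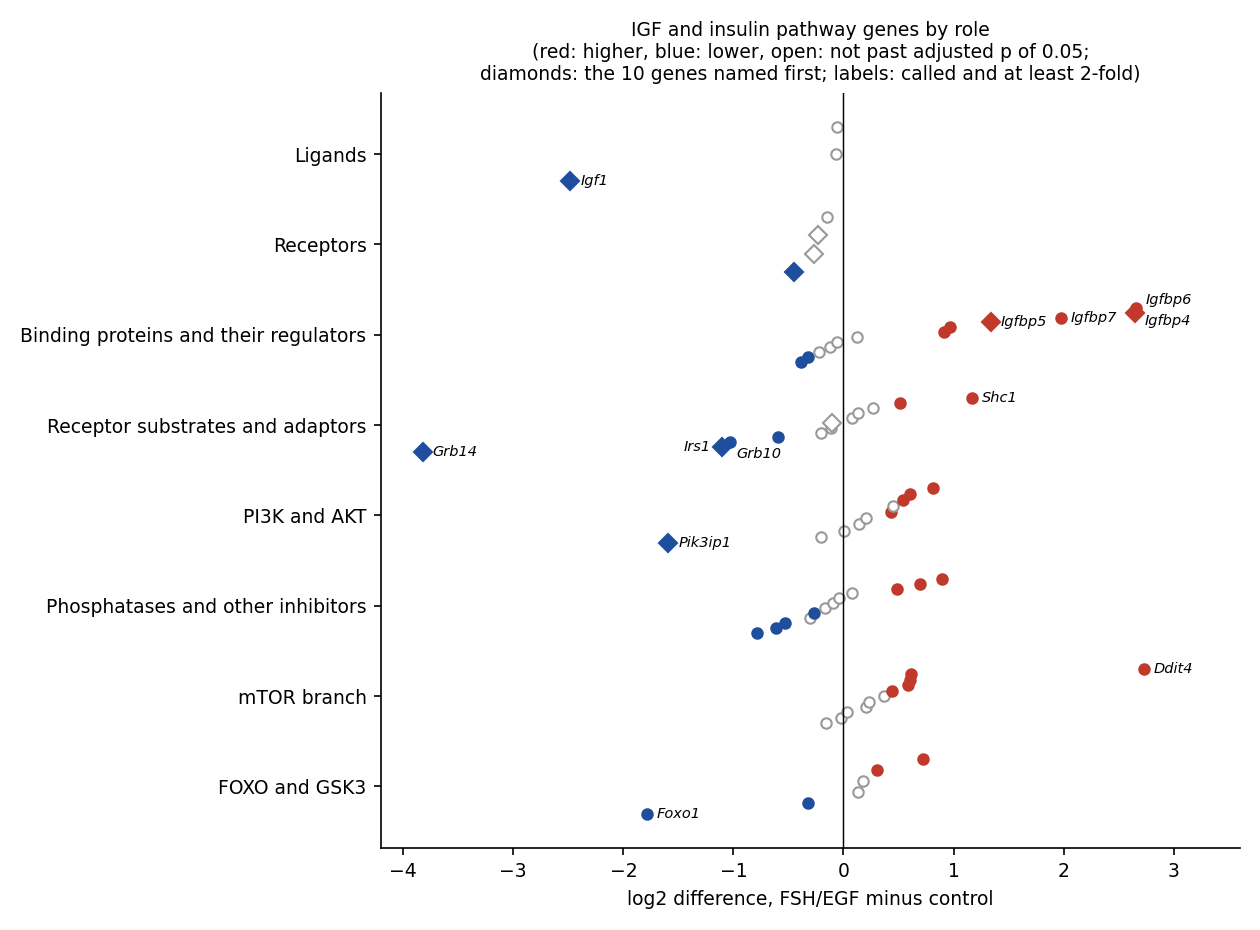
Log2 difference FSH/EGF minus control for each of the 70 measured pathway genes, by role, with diamonds for the 10 genes described first. Of the 70 genes 22 rose and 15 fell, where 21.9% of all genes were higher and 14.9% lower.

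The genes whose pattern over the 12 arrays was most like that of Igf1, by Pearson correlation of log2 values over 19938 genes, were Prps2, Ralgps2 and Hpgd, with r of 0.997, 0.994 and 0.993. The 12 points fall into separate groups, with all 4 FSH/EGF arrays low for each of these genes, and r is given as a description. Within the 8 control and GDF9 arrays r was 0.969, 0.828 and 0.928. They were picked for likeness to Igf1 over the same arrays. Their fall with FSH/EGF follows from that choice and is no separate result. The log2 differences were −1.62 ± 0.14 for Prps2, an enzyme of phosphoribosyl pyrophosphate synthesis, and −2.19 ± 0.15 for Ralgps2. For Hpgd, the enzyme that inactivates prostaglandins, the difference was −3.93 ± 0.20. With GDF9 none of the 3 passed against control in limma, nor did Igf1, and 0% of all genes did.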

How the data were processed

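Expression was measured in mouse cumulus cells on 12 arrays, 4 per culture group. The values were deposited by the authors as normalized log2 expression values, from 2.92 to 14.3, and the submitters' processing notes list RMA, Partek and GCOS with neither version nor role. No genome build is given in the sources used here. Of 35399 rows, 21789 carried 1 gene symbol, 1621 several and 11989 were not listed in the annotation. The brightest probe set on average stood for a gene (19938 genes, of which 999 had several). limma 3.58.1 in R 4.3.3 fitted 1 mean per group to every row, moderated the variances (eBayes) and adjusted p over all rows by Benjamini-Hochberg, with a threshold of 0.05. Intervals are at 95%. The pipeline was tested on simulated data. The members and lists were chosen with earlier results of these data known. Named genes were the 10 members, up to 3 called non-members of each role group by size of change, and the 3 genes best correlated with Igf1. Igfbp1, Igfbp2, Igfbp3, Stc2, Igf2, Ins2 and Insrr were named beside their groups, and the named markers beside their lists, after their values were seen. The labels do not say whether same-numbered arrays share a culture, and the main model did not pair them. Alternatives changed moderation, array weights, scaling, dim rows, probe sets and arrays. The 4 arrays per group limit the precision.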

Additional observations from a re-analysis of the deposited data

Results flagged for a closer look

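Over 84 sets of 4 arrays (28 genes in 3 groups), 3 held an array far from the other 3, where chance gives about 1 set in 20. For Igfbp5 this was control array 1 (6.05, against 5.52 to 5.57), with a gap of 0.915 of the group's range. Without that array the FSH/EGF minus control difference was 1.47 in place of 1.34. For Pik3ip1 it was control array 4 (7.15, against 6.77 to 6.80), with a gap of 0.916 of the range. Without it the GDF9 minus control difference of Pik3ip1 was −0.40 in place of −0.50, and the FSH/EGF minus control difference −1.50 in place of −1.59. For Mlst8 it was control array 3 (6.45, against 6.63 to 6.65), with a gap of 0.899 of the range, and without that array its FSH/EGF minus control difference was 0.57 in place of 0.62.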

How the results depend on the processing

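Over 25 alternatives for each comparison, the count of the 10 genes past the threshold was 6 to 9 for FSH/EGF minus control, 5 to 8 for FSH/EGF minus GDF9 and 0 for GDF9 minus control. In the same order, the share of all genes tested was 26.2% to 49.9%, 24.9% to 41.1% and 0% to 0.00502%. Rows past the threshold numbered 7163 to 13101, 6412 to 10163 and 0 to 1, the 1 arising without GDF9 replicate 3 (range over arrays left out 0 to 1). Pathway counts, added after seeing the data, as were the alternatives for Stc2, were 32 to 41, with 7 to 9 for binding proteins and their regulators. Directions turned only for small differences. In FSH/EGF minus control, Irs2 turned to 0.0517 without control arrays 1 and 4 and to 0.102 without FSH/EGF array 3 as well. In GDF9 minus control, Igf1 turned to −0.0829 with array weights, −0.0294 with renewed quantile normalization and −0.0925 without control arrays 1 and 4, whether or not FSH/EGF array 3 was also left out (−0.15 to 0.16 over arrays left out). Igf2r turned to −0.0138 with array weights and −0.0128 with renewed quantile normalization (−0.0457 to 0.136). Igfbp5 turned to 0.0084 with array weights and 0.057 without control arrays 1 and 4, whether or not FSH/EGF array 3 was also left out (−0.131 to 0.0454). Over arrays left out Irs2 ran from −0.019 to 0.236 and Grb14 from −0.122 to 0.0013. The cause was not tested. With the replicate number as a block, 9600, 0 and 7547 rows and 7, 0 and 6 of the 10 genes passed, against 34.3%, 0% and 27.4% of all genes. No call of these 10 genes changed. In deviations from the group means, same-numbered arrays of different groups correlated at −0.389 to 0.221 (median 0.105), and 9 of 24 best matches were the own number. Arrays of other numbers correlated at −0.346 to 0.389 (median −0.0547). These overlapping values do not settle whether the numbers pair the arrays. Signal over background was not analysed here.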

Other observations

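Igfbp4 was lowest on array 4 of each group, at 7.59 in control, 7.27 with GDF9 and 10.05 with FSH/EGF. The labels do not say whether array numbers pair the groups. Irs2 was highest on array 4 with GDF9 (8.97) and with FSH/EGF (8.85), but on array 1 in control (8.63). Irs1 was lowest on array 3 in control (7.77) and with GDF9 (7.29), but on array 1 with FSH/EGF (6.86). These genes were picked from the 10 after their values were seen, and the agreement between groups was not tested.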
